A study of Homo sapiens with 31 samples.

Results

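The comparison was between total RNA mixtures holding 50% colorectal cancer RNA and mixtures holding 0.1%, with 4 libraries on each side, 8 of the 31 libraries of the series. They were chosen by their labels alone. In each set 1 library was made with RNA of each of 4 established human colorectal adenocarcinoma lines, LoVo, LS1034, HT-29 and HCT116, and the balance was RNA of CCD841CoN, a line labelled as normal colon. The mixtures at 0.1% therefore held 99.9% CCD841CoN RNA and those at 50% held 50%, so that both sides contained CCD841CoN RNA and no library was free of it. No line is labelled as treated or as genetically modified. The series also holds mixtures at 1% and 10% and 3 unmixed libraries of each of the 5 lines. Its aim was to test, on RNA mixed at known proportions, a computational separation of cancer from normal transcripts.

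Each cancer line contributed 1 library at each percentage, and the libraries were compared in pairs, 50% against 0.1% of the same line. The replicates behind every test were therefore 4 different lines, not repeats of a mixture. The labels do not say whether the RNA of a line came from more than 1 culture. The percentages refer to shares of mixed total RNA, not to numbers of cells. Values in the 4 libraries of a percentage are given in the order LoVo, LS1034, HT-29 and HCT116 throughout. Levels are counts scaled to the library's total of protein-coding counts, in the usual unit CPM, and changes are log2 ratios of 50% over 0.1% with their standard error (SE). The SE comes from edgeR's model of the counts, which shares information on spread between genes. It is not the spread of the 4 paired ratios and can be small where lines differ widely.

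Colorectal carcinoma cells keep many features of the gut lining: they are joined by adherens and tight junctions, carry simple keratins, and often keep the transcription factors that define intestinal identity. Mesenchymal cells of the gut wall instead secrete collagens and proteoglycans and contain contractile actin and myosin. When RNAs are mixed, the level of each transcript is the average of its levels in the sources, weighted by their shares. The same weights apply to all genes, but they act unevenly on rises and falls. By this arithmetic a gene absent from CCD841CoN can rise up to 500-fold between the labelled 0.1% and 50% (log2 8.97), whereas a gene absent from the cancer line can fall no further than to 0.5005 of its level (log2 -1.0). A gene 2-fold higher in the cancer line would rise by 0.58 on the log2 scale, and a gene 10-fold higher by 2.45. A gene 10-fold lower would show a log2 change of -0.86.

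The 8 libraries held between 13075811 and 54714765 counts over 17113 protein-coding genes, the fewest in HCT116 at 0.1% and the most in HT-29 at 50%. Mitochondrially encoded genes took between 0.205% and 0.396% of the counts. The label of CCD841CoN was set against markers. In the 4 mixtures at 0.1%, the 30 genes of an intestinal identity list summed to between 5.97 and 18.4 CPM, and the 40 genes of a collagen and extracellular matrix list to between 44259 and 44877 CPM. EPCAM, the epithelial cell adhesion molecule, had a mean of 0.108 CPM in the unmixed CCD841CoN libraries, where the collagen chain COL1A1 had a mean of 8168 CPM. These markers thus went against an epithelial reading of the label, but other epithelial genes were present. A list of junction, keratin and epithelial regulator genes summed to between 675 and 727 CPM in the same 4 mixtures. Its members KRT18, KRT7 and CLDN1 were also found in unmixed CCD841CoN, at levels given below. The label was therefore not settled by markers, and the line is called CCD841CoN here with no tissue type attached.

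Of 17113 genes, 12521 passed the filter on low counts and were tested, and 4611 of them (36.8%) passed an adjusted p of 0.05 in edgeR's quasi-likelihood test with Benjamini-Hochberg adjustment. Of the genes tested, 2581 (20.6%) were higher at 50% and 2030 (16.2%) were lower. The 2 sets of 4 libraries did not overlap for 2392 of the genes called higher and 1849 of those called lower. Over all 12521 genes tested, called or not, 3294 were higher and 2126 lower without overlap, so a lack of overlap is common here. In all 4 lines the paired ratio pointed the same way for 2526 of the genes called higher and 1977 of those called lower. Leaving out 1 line at a time, with both of its mixtures, left between 3298 and 3643 calls.

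Rises and falls differed in size, as the mixing arithmetic allows. The median log2 change was 1.20 over the genes called higher and -0.90 over those called lower, against 0.07 over all genes tested. Among genes called higher, 1547 rose by at least 1 on the log2 scale and 610 by at least 3. Among genes called lower, 774 had a log2 change of -1 or less and 4 of -3 or less. No count was seen in any 0.1% library for 75 of the genes called higher, and fitted changes of such genes have no meaning as a size. No gene called lower was without counts at 50%.

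**Figure D1:**
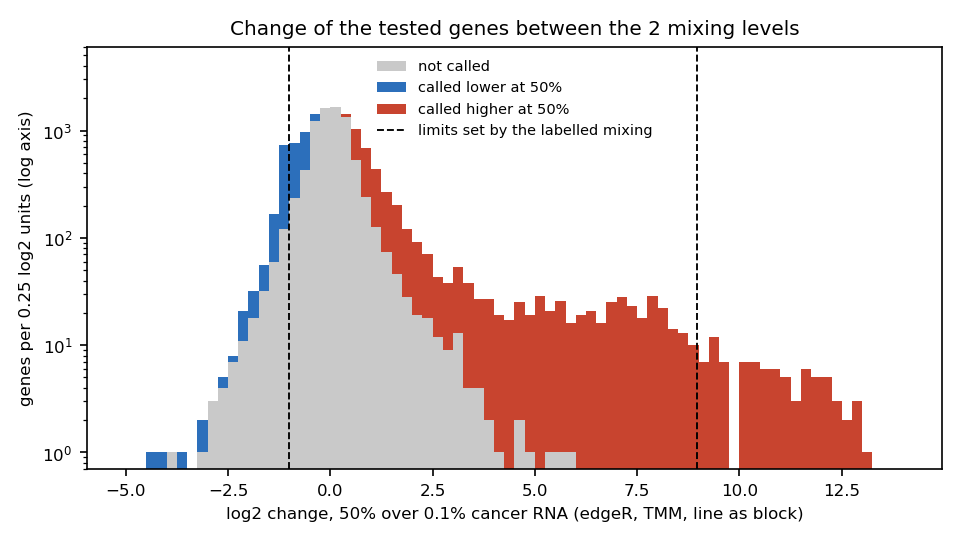
Distribution of the log2 change from 0.1% to 50% cancer RNA over the 12521 genes tested, in bins of 0.25, with the number of genes on a log axis and genes called higher, called lower and not called stacked in separate colours. Dashed lines mark the changes that labelled mixing allows at most, -1.0 and 8.97; the genes called lower gather on both sides of the lower line, and those called higher spread over the whole range up to the upper one, with some beyond it.

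The genes held by only 1 side were set beside both limits. Of 276 tested genes that were at least 50 times higher in unmixed CCD841CoN than in each unmixed cancer line, 271 fell and none rose by edgeR's test (0 also at an unadjusted p under 0.05 and by DESeq2), with a median log2 change of -1.16. Scaling by library size alone moved that median to -1.07, and both medians lay beyond the limit of -1.0 set by the labels. Genes at least 50 times higher in each cancer line than in CCD841CoN numbered 158, all passed the filter and all rose. Their median of 7.63 lay under the upper limit of 8.97. The lines' unmixed libraries, which no mixture shares, chose these genes.

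The same kind of gene, chosen line by line, gave the share of cancer RNA that the expression values carried. From the summed gain of cancer-only genes, at 553, 594, 542 and 360 genes in the 4 lines, the 50% mixtures held 48.7%, 55.6%, 57.8% and 51.4% cancer RNA. From the loss of CCD841CoN-only genes, at 513, 608, 598 and 510 genes, they held 44.7%, 52.4%, 58.9% and 51.0%. LoVo was lowest and HT-29 highest by both routes.

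The mean was 53.4% ± 4.08 (SD, n = 4 lines) by gain and 51.8% ± 5.83 by loss. Against the labelled 50%, a two-sided exact sign-flip permutation test over lines gave p = 0.25 and p = 0.625. With 4 lines no p below 0.13 is possible, so the test cannot pass 0.05 and does not show that the shares equal the label. Gain exceeded loss by 1.61 ± 2.41 percentage points (SD, n = 4 lines; exact p = 0.375), but this turned with the reference for the loss. Against unmixed CCD841CoN in place of the 0.1% mixture, the loss estimate was 48.8%, 56.0%, 61.9% and 55.1%, above the gain in 4 of 4 lines, and gain minus loss was -2.06 ± 2.17 points (exact p = 0.13, the smallest possible). In the mixtures labelled 0.1%, the gain estimate was 0.403%, 0.433%, 0.492% and 0.666%, but the median over the same genes was 0.101%, 0.0880%, 0.181% and 0%. The gain estimate is the level in the mixture over the unmixed cancer level, with no CCD841CoN level subtracted. Cancer-only genes need only be 50 times higher in the cancer line, so what CCD841CoN holds of them raises the estimate. At 0.1% the gain estimate therefore cannot tell CCD841CoN levels from cancer RNA beyond the label, and which of them raised it was not tested. At 50% the medians over genes were 44.9%, 52.9%, 50.0% and 52.0% by gain and 45.1%, 52.4%, 59.2% and 51.3% by loss. LoVo was lowest by sums and medians alike, whereas HT-29 was not highest by the gain medians. The shares computed at 1% were 1.34%, 1.71%, 2.10% and 1.79%, and at 10% 10.6%, 13.7%, 15.7% and 11.8%.

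**Figure D2:**
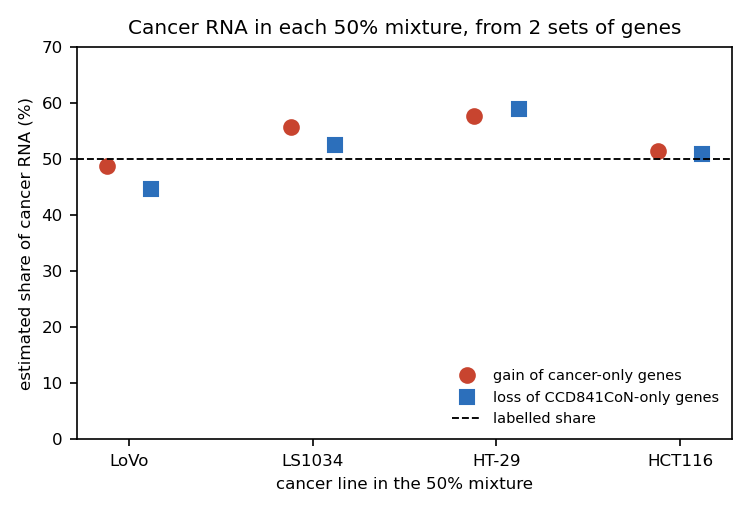
Estimated share of cancer RNA (percent) in the 4 mixtures labelled 50%, by line; red circles give the estimate from the gain of cancer-only genes and blue squares that from the loss of CCD841CoN-only genes, and the dashed line marks the labelled 50%. LoVo lies below the line by both estimates (48.7% and 44.7%), LS1034, HT-29 and HCT116 lie above it, and HT-29 is highest (57.8% and 58.9%).

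Epithelial genes rose almost throughout. All 37 tested members of a list of 40 junction, keratin and epithelial regulator genes were called, 35 higher and 2 lower, with a median log2 change of 7.21. Over all genes tested 20.6% were called higher and 16.2% lower, and each list below is to be read beside these shares. The summed level of the list went from between 675 and 727 CPM at 0.1% to between 5581 and 19949 CPM at 50%, lowest in HCT116 and highest in HT-29.

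EPCAM stood at 3.01, 6.28, 5.46 and 1.38 CPM at 0.1% and at 539, 1349.5, 942 and 371 CPM at 50%. The lowest library at 50% was far above the highest at 0.1%, and HCT116 was lowest on both sides. EPCAM rose by 7.56 ± 0.16 on the log2 scale (SE, n = 4 pairs; adjusted p = 3.25e-06, edgeR). Between these ends it read 16.1, 45.1, 32.9 and 6.22 CPM at 1% and 120, 343, 239 and 77.1 CPM at 10%, so that each line rose at every step.

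CDH1 encodes E-cadherin, the adhesion protein of adherens junctions. It was at 0.906, 2.66, 2.25 and 0.229 CPM at 0.1% and 221, 564, 196 and 30.6 CPM at 50%, without overlap and with LS1034 highest. CDH1 rose by 7.26 ± 0.30 (adjusted p = 3.5e-05). The tight junction gene CLDN4 went from 3.72, 2.13, 2.75 and 1.76 CPM to 379.9, 495, 525 and 136 CPM, again without overlap, a rise of 7.04 ± 0.33 (adjusted p = 5.27e-05). GRHL2, a transcription factor of epithelial genes, had no count in any 0.1% library and stood at 35.4, 18.9, 21.7 and 17.0 CPM at 50%. Against a floor of 3 counts over the 4 libraries it was at least 773-fold higher. The splicing regulator ESRP1, with 6 counts in all at 0.1%, reached 19.8, 95.9, 63.1 and 48.2 CPM.

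The keratins KRT8 and KRT18, which pair in simple epithelia, differed in their level at 0.1%. KRT8 went from 12.2, 18.4, 35.4 and 7.72 CPM to 2104, 2859, 7236 and 1177 CPM, without overlap. KRT8 rose by 7.33 ± 0.14 (adjusted p = 2.26e-06). Its partner KRT18 already stood at 208, 196, 216 and 212 CPM at 0.1% and reached 1613, 1855, 4682 and 586 CPM at 50%. KRT18 rose by 2.95 ± 0.46 (adjusted p = 0.00326), and unmixed CCD841CoN held a mean of 232 CPM of it. Keratin genes have near-identical pseudogene copies, and how reads shared by copies were counted is not given in the sources used here.

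Both members that fell are also epithelial genes. KRT7 was at 58.2, 57.4, 50.1 and 50.7 CPM at 0.1% and 51.0, 31.6, 22.3 and 28.8 CPM at 50%, where the LoVo library overlapped the 0.1% range. KRT7 fell by 0.84 ± 0.18 on the log2 scale (adjusted p = 0.0103). CLDN1, a tight junction claudin, went from 228, 208, 224 and 221 CPM to 132, 199.6, 126 and 95.8 CPM. CLDN1 fell by 0.81 ± 0.20 (adjusted p = 0.0175), but its adjusted p was 0.0589 without LoVo, 0.0587 without HT-29 and 0.0585 without HCT116. Both were highest in CCD841CoN among the unmixed lines, at means of 90.9 CPM for KRT7 and 286 CPM for CLDN1.

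**Figure D3:**
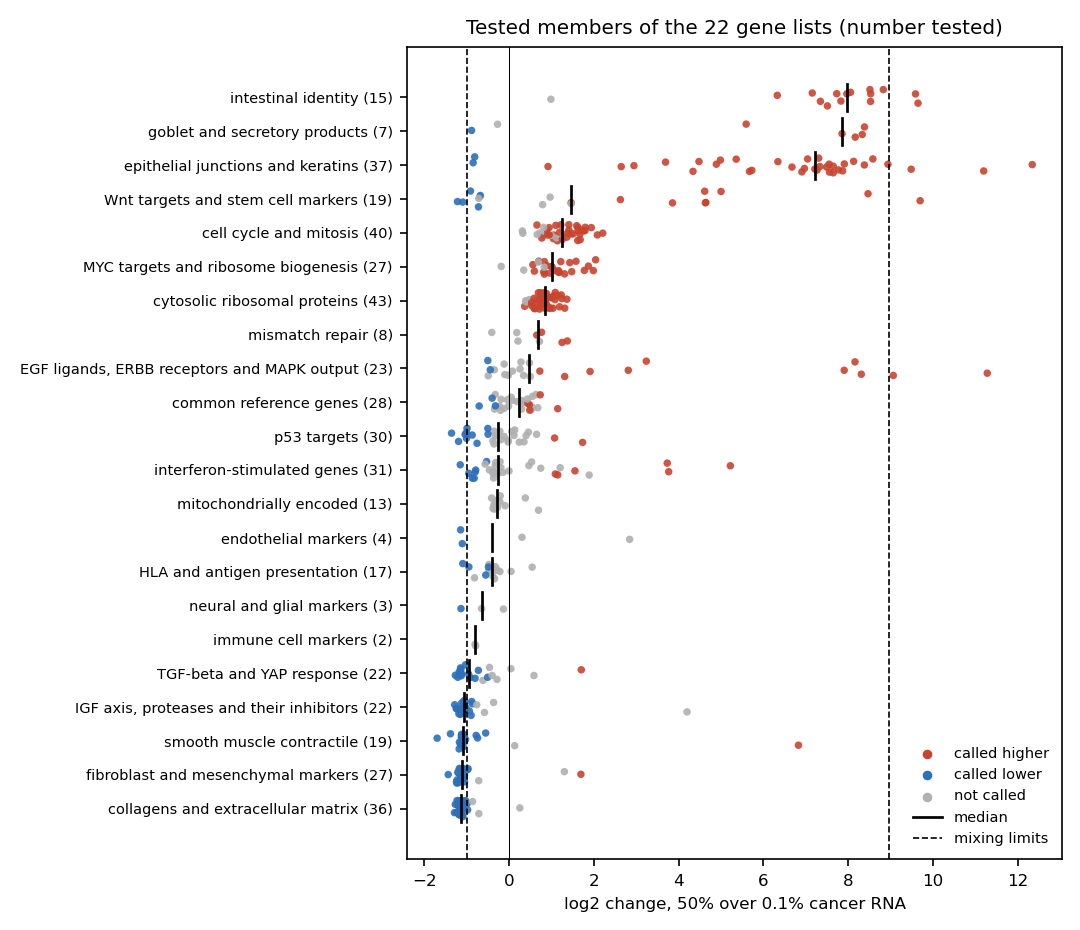
Log2 change from 0.1% to 50% cancer RNA of each tested member (points) of the 22 gene lists, with the median of each list as a bar and the 2 mixing limits, -1.0 and 8.97, as dashed lines. The epithelial, intestinal and secretory lists have medians of 7.21, 7.97 and 7.85; the collagen, fibroblast and smooth muscle lists sit together at -1.13, -1.12 and -1.08.

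Where a list is said to have none called in 1 direction, edgeR's unadjusted p was under 0.05 in that direction for 0 members, and DESeq2 also called 0, except where other counts are given. Genes of intestinal identity were unevenly spread over the lines. Of 30 list members only 15 passed the filter, 14 were called higher and none lower, with a median of 7.97; a member passes the filter mainly through the mixtures in which it is high. The sum of the list ran from 22.9 CPM in HCT116 to 6074 CPM in LS1034 at 50%, and the median log2 ratio of its members was 6.10, 7.26, 5.61 and 0.19 in the 4 lines.

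CDX2, the transcription factor that sets intestinal fate, stood at 0.317, 0.145, 0 and 0 CPM at 0.1% and 38.7, 44.4, 3.51 and 9.49 CPM at 50%. The groups did not overlap, and LoVo and LS1034 were several times above HT-29 and HCT116. CDX2 rose by 7.51 ± 0.49 (adjusted p = 0.000162). HNF4A, a nuclear receptor of absorptive cells, had 4 counts in all at 0.1% and read 49.3, 42.5, 17.7 and 2.56 CPM at 50%, a rise of 9.64 ± 0.55 (adjusted p = 9.57e-05).

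Markers of differentiated surface cells came from some lines only. CDH17, an intestinal cadherin, was at 0.884, 3.09, 0 and 0 CPM at 0.1% and 451, 966, 1.06 and 0.0692 CPM at 50%. LoVo and LS1034 stood above the 0.1% range, and HT-29 and HCT116 at 50% lay within it. CDH17 rose by 8.51 ± 0.25 (adjusted p = 1.52e-05), a fitted value whose SE does not show this difference between lines. KRT20, a keratin of mature surface cells, went from 0, 0.193, 1.83 and 0 CPM to 3.23, 318, 349 and 0.623 CPM. LS1034 and HT-29 carried it, and HCT116 at 50% overlapped the 0.1% range. KRT20 rose by 8.53 ± 0.57 (adjusted p = 0.000182).

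TSPAN8, a tetraspanin of the gut epithelium, was at 2.40, 2.61, 2.93 and 0 CPM at 0.1% and 516, 1027, 495 and 0 CPM at 50%. HCT116 had no count on either side, so the fitted rise of 7.83 ± 0.31 (adjusted p = 6.8e-05) rests on the other 3 lines. LGALS4, a galectin of the same cells, went from 0.317, 1.01, 2.98 and 0 CPM to 58.1, 434, 678 and 0 CPM and was likewise empty in HCT116. LGALS4 rose by 7.97 ± 0.31 (adjusted p = 6.59e-05). In all, 25 called genes had no count in either library of 1 line.

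Members that failed the filter were high in few lines. VIL1, the villin of microvilli, had 1 count in all at 0.1% and read 5.83, 208, 105 and 0 CPM at 50%. CDX1, a homeobox partner of CDX2, was at 1.35, 149.7, 0.366 and 0 CPM at 50%, almost wholly from LS1034. With no filter on low counts, 25 members of the intestinal list passed the test.

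Secretory cell products were more scattered still. Of 26 list members measured, 7 were tested, 5 were called higher and 1 lower, and the number higher was 3 without HT-29 and 10 without HCT116. AGR2, a disulphide isomerase needed for mucin folding, went from 0.725, 0.87, 1.60 and 0 CPM to 245, 193, 567 and 0 CPM, present in every line but HCT116. AGR2 rose by 8.16 ± 0.24 over those lines (adjusted p = 2.96e-05).

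LYZ, the lysozyme of Paneth cells, read 0, 0, 5.69 and 0 CPM at 0.1% and 0.53, 1.05, 1362 and 0 CPM at 50%. It was an HT-29 gene: the other lines stayed below the level of HT-29 at 0.1%. LYZ was called higher (log2 7.85 ± 0.30, adjusted p = 6.59e-05), but it failed the filter without HT-29, and its adjusted p was 0.0617 with lines not paired.

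REG4, a secreted lectin, was at 960.0, 0.062, 42.7 and 0 CPM at 50% and so came almost all from LoVo. TFF3, the goblet cell trefoil peptide, was at 0, 147, 25.2 and 0 CPM. Neither was tested. CREB3L1, a membrane-bound transcription factor, was the gene called lower, at 329.7, 325, 321 and 315 CPM at 0.1% and 180.3, 166, 255 and 158 CPM at 50%. CREB3L1 fell by 0.88 ± 0.15 (adjusted p = 0.00474), least in HT-29, the only cancer line in which its unmixed mean was above 10 CPM (262 CPM).

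**Figure D4:**
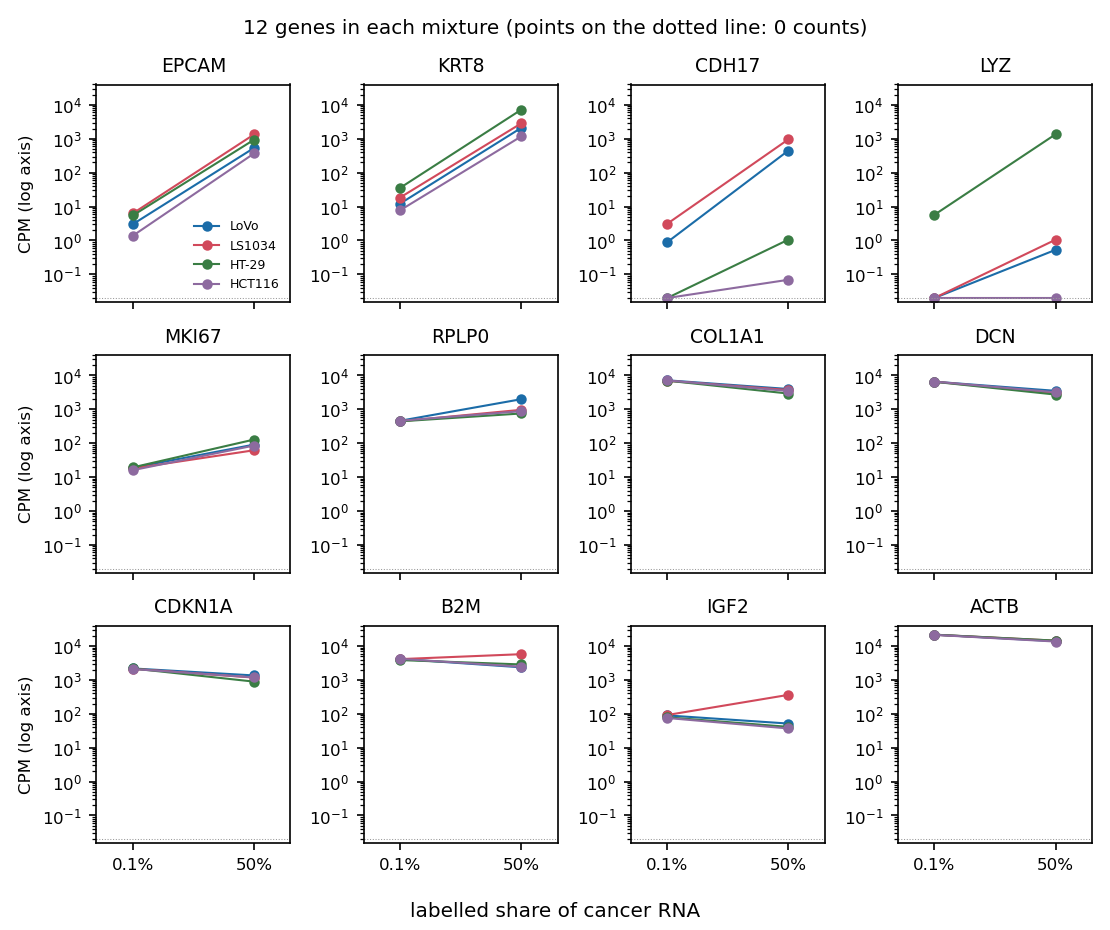
Level (CPM, log axis) of 12 genes in each mixture at 0.1% and 50% cancer RNA, with 1 coloured line per cancer line; dotted lines mark libraries with no count. EPCAM and KRT8 climb in all 4 lines, CDH17 and LYZ in some only, MKI67 and RPLP0 rise modestly, COL1A1, DCN and CDKN1A fall by about the share of CCD841CoN RNA lost, and B2M and IGF2 differ in direction between lines.

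Wnt signalling, which is switched on in most colorectal cancers, drives a set of feedback and stem cell genes. Of 19 tested members of this list, 9 were called higher and 5 lower (73.7% called, against 36.8% of all genes), with a median of 1.47. The number lower was 3 without HT-29 or without HCT116. RNF43, a Wnt receptor ligase and negative feedback gene, went from 0, 0.338, 0.734 and 0 CPM to 35.9, 161, 113 and 36.6 CPM. RNF43 rose by 8.47 ± 0.55 (adjusted p = 0.000151), with no overlap between the groups.

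AXIN2, a further feedback gene, stood at 0.589, 1.84, 0.275 and 1.38 CPM at 0.1% and 33.6, 60.1, 19.2 and 3.88 CPM at 50%. AXIN2 rose by 4.64 ± 0.79 (adjusted p = 0.00464), least in HCT116. SOX9, a crypt transcription factor, was at 6.46, 6.81, 4.22 and 6.73 CPM and then 179, 248, 109 and 122 CPM, clear of overlap, a rise of 4.63 ± 0.21 (adjusted p = 4.94e-05). LGR5, the crypt base stem cell receptor, was not tested: at 50% it read 202, 7.45, 0.0914 and 0 CPM, nearly all from LoVo.

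The members that fell included widely used Wnt targets. CD44, a hyaluronan receptor, was at 4117, 4254, 4197 and 4139 CPM at 0.1% and 2371, 1927, 1891 and 2197 CPM at 50%, apart in every library. CD44 fell by 1.09 ± 0.08 (adjusted p = 0.000238), close to the mixing limit. CCND1, encoding cyclin D1, went from 2049, 2049.6, 2038 and 1941 CPM to 1237, 1122, 962 and 1279.6 CPM and fell by 0.91 ± 0.09 (adjusted p = 0.000747). The remaining members called lower were EPHB2, TNFRSF19 and BAMBI.

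Proliferation genes were already present at 0.1% and most of them rose. Of 40 cell cycle and mitosis genes, all tested, 32 were called higher and none lower (80.0% called, against 36.8% of all genes). Their median was 1.24. Some calls depended on 1 line: AURKA, BIRC5, CDC20, KIF11 and PCNA, among others, did not pass without HCT116. CCNA2, not called over the 4 lines, passed without LS1034. MKI67, the marker of cycling cells, read 19.0, 18.0, 19.4 and 16.1 CPM at 0.1% and 91.1, 62.2, 129 and 85.6 CPM at 50%. The groups were apart, and MKI67 rose by 2.21 ± 0.19 (adjusted p = 0.000438). CDK1, the mitotic kinase, went from 67.3, 64.0, 59.2 and 61.3 CPM to 204, 204, 276 and 231 CPM and rose by 1.76 ± 0.15 (adjusted p = 0.000462).

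Replication genes differed more between lines. MCM7, a subunit of the replicative helicase, read 97.9, 83.9, 94.8 and 86.3 CPM at 0.1% and 211, 185, 463 and 488 CPM at 50%, where HT-29 and HCT116 stood above LoVo and LS1034. MCM7 rose by 1.67 ± 0.28 (adjusted p = 0.00415). MCM4, from the same complex, also had HT-29 and HCT116 above LoVo and LS1034, at 94.0, 106, 291 and 415 CPM at 50% against 77.2 to 87.3 CPM at 0.1%. Despite separate groups, its change of 1.12 ± 0.37 did not pass (adjusted p = 0.0513), although 7 of 10 alternatives called it, DESeq2 with an adjusted p of 0.00373 and the fit with lines not paired with 0.0289. TYMS, the thymidylate synthase that fluorouracil blocks, went from 51.5, 49.0, 57.1 and 61.9 CPM to 86.4, 38.0, 155 and 208 CPM. LS1034 was lower at 50% and the other lines higher, and the change did not pass (log2 0.82 ± 0.34, adjusted p = 0.0967).

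Genes of ribosome production moved in the same direction. Of 27 tested MYC target and ribosome biogenesis genes, 23 were called higher and none lower (85.2% called, against 36.8% of all genes). Their median was 1.02. GNL3, PES1 and RRS1, among others, did not pass without HCT116, whereas CAD, not called over the 4 lines, passed without LoVo. NPM1, the nucleolar chaperone nucleophosmin, went from 251, 260.1, 267 and 244 CPM to 915, 486, 628 and 740.2 CPM, without overlap. NPM1 rose by 1.31 ± 0.16 (adjusted p = 0.00122). FBL, the fibrillarin methylase of ribosomal RNA, went from 28.2, 31.0, 30.0 and 28.8 CPM to 83.2, 107, 194 and 139 CPM, a rise of 1.99 ± 0.22 (adjusted p = 0.000964). The mitochondrial chaperone HSPD1 went from 206, 233, 214 and 220.5 CPM to 741, 689, 941 and 1085 CPM, and rose by 1.88 ± 0.14 (adjusted p = 0.000284). SRM, which makes spermidine, read 212, 228, 212 and 223 CPM and then 201, 148, 228 and 257 CPM, overlapping and not called (log2 -0.18 ± 0.16, adjusted p = 0.392).

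Of 43 cytosolic ribosomal protein genes, 40 were called higher and none lower (93.0% called, against 36.8% of all genes). Their median was 0.85. RPL11, RPL15, RPS4X and RPSA did not pass without LoVo, whereas RPL22 and RPL27, not called over the 4 lines, passed without LS1034. The sum of the list went from between 11595 and 12105 CPM to between 21102 and 31717 CPM. RPLP0, of the ribosomal stalk, read 459.7, 444, 443 and 459 CPM at 0.1% and 1996, 969.9, 756 and 883 CPM at 50%, all 4 above the 0.1% range and LoVo far above the rest. RPLP0 rose by 1.15 ± 0.21 (adjusted p = 0.00562). Genes of this family have many processed pseudogenes, so their counts are uncertain where reads could be shared.

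On the other side of the mixture, the extracellular matrix fell as a block. Of 36 tested collagen and matrix genes, 33 were called lower and none higher (91.7% called, against 36.8% of all genes). Their median was -1.13. Their sum dropped from between 44259 and 44877 CPM to between 17908 and 24895 CPM, and the groups stood far apart.

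COL1A1, the alpha 1 chain of type I collagen, was at 7205, 6960.4, 7032 and 7143 CPM at 0.1% and 3989, 3723, 2928 and 3475 CPM at 50%. At 50%, HT-29, with the highest estimated cancer share, was lowest and LoVo, with the lowest share, was highest. COL1A1 is itself among the CCD841CoN-only genes behind the loss estimate, so its order is not independent of those shares. COL1A1 fell by 1.10 ± 0.08 (adjusted p = 0.000224). At 10% cancer RNA it read 6283, 6161, 6078 and 6345 CPM, and no unmixed cancer line had a mean above 7.44 CPM. DCN, the collagen-binding proteoglycan decorin, went from 6557, 6562, 6516 and 6579.7 CPM to 3519, 3003, 2731 and 3202 CPM, again lowest in HT-29 and highest in LoVo. DCN fell by 1.17 ± 0.07 (adjusted p = 0.000119). FN1, fibronectin, went from 2160.2, 2088, 2194 and 2065 CPM to 1156, 1068, 749 and 1001 CPM and fell by 1.20 ± 0.11 (adjusted p = 0.000592).

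The 3 matrix genes not called were BGN, VCAN and LAMA4. VCAN, encoding versican, read 3.08, 2.66, 2.20 and 2.14 CPM at 0.1% and 1.20, 2.30, 1.96 and 30.6 CPM at 50%. It was high in HCT116 alone, and its fitted change was 0.26 ± 0.86 (adjusted p = 0.839). BGN, encoding biglycan, was likewise high at 50% only in HT-29, at 18.3 CPM against 0.186 to 0.692 CPM in the other lines, and LAMA4, a laminin chain, had its highest value in LoVo at 50%, 21.8 CPM.

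Of 27 tested fibroblast and mesenchymal markers, 23 were called lower and 1 higher (88.9% called, against 36.8% of all genes). Their median was -1.12. VIM, the intermediate filament vimentin, was at 1309, 1311, 1319 and 1306 CPM at 0.1% and 707, 586, 529 and 638 CPM at 50%, well apart. VIM fell by 1.19 ± 0.09 (adjusted p = 0.000304). FOXF1, a transcription factor of gut mesenchyme, went from 752, 758, 774 and 789 CPM to 424, 352, 327 and 368 CPM and fell by 1.16 ± 0.10 (adjusted p = 0.000422). PDGFRA, a growth factor receptor of fibroblasts, fell by 1.12 ± 0.12 (adjusted p = 0.000892).

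S100A4, a calcium-binding protein also called fibroblast-specific protein, was the member that rose. It stood at 41.2, 42.1, 37.2 and 37.2 CPM at 0.1% and 43.6, 219, 116 and 283 CPM at 50%, barely changed in LoVo. S100A4 rose by 1.70 ± 0.45 (adjusted p = 0.0249), but the adjusted p was 0.0879 without LS1034, 0.0740 without HT-29 and 0.0765 without HCT116.

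Smooth muscle genes followed the matrix: of 19 tested, 17 were called lower and 1 higher (94.7% called, against 36.8% of all genes). Their median was -1.08. ACTA2, smooth muscle alpha actin, was at 1171, 1158, 1159 and 1109 CPM at 0.1% and 642, 579, 491 and 544 CPM at 50%, with no overlap. ACTA2 fell by 1.12 ± 0.09 (adjusted p = 0.00036). TPM2, a tropomyosin, fell by 1.06 ± 0.07 (adjusted p = 0.000198). The contractile myosin MYH11, a late marker of this cell type, was under 1 CPM in all 8 libraries and was not called. TINAGL1, a secreted matrix protein, was the member called higher. It went from 0.793, 1.06, 1.79 and 0 CPM to 96.1, 143, 137 and 37.1 CPM, clear of overlap, and rose by 6.83 ± 0.37 (adjusted p = 8.01e-05).

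Targets of TGF-beta and of the mechanically regulated factor YAP showed 15 called lower and 1 higher of 22 tested. Their median was -0.93, and 72.7% were called, against 36.8% of all genes. CCN2, encoding connective tissue growth factor, was at 1388, 1372, 1369.9 and 1441 CPM and then 780.0, 649, 590.3 and 707 CPM, groups apart. CCN2 fell by 1.13 ± 0.09 (adjusted p = 0.000316). TGFBI, a secreted TGF-beta-induced protein, went from 1554, 1641, 1694 and 1599 CPM to 888, 2064, 677 and 795 CPM. LS1034 at 50% lay above every 0.1% library and the other lines below them, and unmixed LS1034 had a mean of 2496 CPM. TGFBI was called (log2 -0.80 ± 0.25, adjusted p = 0.0449), and its adjusted p was 0.118 without LoVo, 0.149 without HT-29, 0.136 without HCT116 and 0.139 with lines not paired. TGIF1, a repressor of SMAD signalling, was the member called higher, at 38.3, 37.2, 38.1 and 32.4 CPM and then 158, 93.6, 114 and 150.1 CPM. TGIF1 rose by 1.71 ± 0.17 (adjusted p = 0.000728), and without HT-29 the number called higher was 2.

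Of 22 tested genes of the insulin-like growth factor axis, proteases and protease inhibitors, 18 were called lower and none higher. Their median was -1.06, and 81.8% were called, against 36.8% of all genes. IGFBP5, a binding protein of the growth factor, was at 5592, 5477, 5276 and 5225 CPM and then 3059, 2524, 2282 and 2528 CPM, far apart. IGFBP5 fell by 1.15 ± 0.07 (adjusted p = 0.000133). MMP2, a gelatinase, fell by 1.14 ± 0.09 (adjusted p = 0.000387), from 1578, 1585, 1612 and 1601 CPM to 883, 803, 654 and 748 CPM. IGF2, the fetal growth factor, was at 89.8, 92.1, 78.9 and 75.4 CPM and then 51.6, 363, 41.2 and 37.0 CPM. LS1034 at 50% lay above all 0.1% libraries and the other 3 lines below them, and IGF2 was not called (log2 -0.36 ± 0.52, adjusted p = 0.613). For 1 member the change was positive at an unadjusted p under 0.05 and by DESeq2, and the number called higher was 2 without LoVo and 1 without HCT116.

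Targets of p53 did not move together. Of 30 tested, 10 were called lower and 2 higher, with a median of -0.25, and the share called, 40.0%, was near that of all genes. The number higher was 1 without LoVo, without LS1034 or without HCT116. CDKN1A, the cell cycle inhibitor p21, was at 2182, 2132, 2177 and 2093 CPM at 0.1% and 1356, 1169.7, 891 and 1189.6 CPM at 50%, without overlap. CDKN1A fell by 1.00 ± 0.10 (adjusted p = 0.000771).

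MDM2, the ubiquitin ligase that restrains p53, read 103, 96.6, 95.4 and 93.0 CPM and then 162, 77.0, 61.7 and 107 CPM. LoVo and HCT116, in which unmixed means were 294 and 195 CPM, lay above the 0.1% range, and LS1034 and HT-29, at 46.2 and 68.5 CPM unmixed, lay below it. Its change of -0.11 ± 0.21 was not called (adjusted p = 0.692). BBC3, the death-promoting protein PUMA, went from 6.87, 4.93, 6.65 and 6.27 CPM to 46.0, 25.4, 11.3 and 16.4 CPM. BBC3 rose by 1.74 ± 0.36 (adjusted p = 0.00923).

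Antigen presentation genes were mostly not called: of 17 tested, 4 were lower and none higher, a share of 23.5% against the 36.8% of all genes. The number lower was 1 without LoVo and 2 without HT-29. B2M, the light chain of class I molecules, was at 4159, 4112, 3854 and 4193 CPM at 0.1% and 2357, 5749.9, 2865 and 2458 CPM at 50%. At 50%, LS1034 lay above all 0.1% libraries and the other 3 lines below them. B2M was not called over the 4 lines (log2 -0.48 ± 0.22, adjusted p = 0.131), and it was called lower without LS1034. HLA-C was at 96.7, 98.2, 129 and 97.2 CPM and then 53.4, 82.3, 43.4 and 57.8 CPM, and fell by 0.95 ± 0.21 (adjusted p = 0.0127). Class I genes are highly alike and differ between lines, so their counts are uncertain. CD74, the class II chaperone, was at 56.8 CPM in LS1034 at 50% and at most 1.83 CPM in the other 7 libraries.

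Of 31 interferon-stimulated genes tested, 7 were lower and 6 higher, with a median of -0.25. The share called was 41.9%, against the 36.8% of all genes. OAS3, an antiviral synthetase, went from 21.5, 24.8, 21.5 and 21.4 CPM to 50.7, 42.8, 50.5 and 69.5 CPM. OAS3 rose by 1.15 ± 0.18 (adjusted p = 0.00332). Its relative OAS1 read 0.408, 2.17, 1.24 and 0.459 CPM and then 38.1, 99.3, 43.1 and 1.66 CPM, where HCT116 lay within the 0.1% range. OAS1 rose by 5.22 ± 0.61 (adjusted p = 0.00116).

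Several ligands of the EGF receptor family, and the receptor ERBB3, came up from near 0. Of 23 tested members of this list, 10 were higher and 2 lower (52.2% called, against 36.8% of all genes), with a median of 0.48. The number lower was 1 without LS1034 and 0 without any other line. The ligand AREG had 10 counts in all at 0.1% and read 28.9, 65.6, 19.3 and 19.9 CPM at 50%, a rise of 8.31 ± 0.46 (adjusted p = 8.01e-05). EREG, a related ligand, was at 0.408, 0.242, 1.56 and 2.14 CPM and then 336, 249, 84.7 and 378 CPM. EREG rose by 7.90 ± 0.71 (adjusted p = 0.000516), least in HT-29.

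Among the receptors, ERBB3 went from 0.816, 0.242, 0.275 and 0 CPM to 177, 119, 98.8 and 14.4 CPM and rose by 8.16 ± 0.31 (adjusted p = 2.6e-05). EGFR itself read 57.4, 64.7, 74.4 and 67.5 CPM and then 74.1, 46.7, 57.2 and 46.0 CPM, overlapping and not called (log2 -0.34 ± 0.18, adjusted p = 0.168). ERBB2 was at 59.1, 66.7, 71.3 and 64.4 CPM and then 94.6, 73.5, 93.1 and 73.3 CPM, apart but not called (log2 0.26 ± 0.14, adjusted p = 0.18). MET, the hepatocyte growth factor receptor, went from 18.8, 19.96, 20.2 and 21.5 CPM to 226, 159.9, 244 and 185 CPM. MET rose by 3.24 ± 0.17 (adjusted p = 6.8e-05), and the MAPK output gene ETV4 by 2.81 ± 0.25 (adjusted p = 0.000496).

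Mismatch repair corrects copying errors in DNA and is lost in a group of colorectal cancers. Of 8 tested, 4 were higher and none lower, with a median of 0.69, where 20.6% of all genes were called higher, but the number was 1 without HT-29 and 2 without HCT116. MSH3, a mismatch recognition subunit, read 52.0 CPM in LoVo and 15.5 CPM in HCT116 at 50%, against 24.0 to 27.8 CPM at 0.1%, and was not called (log2 0.21 ± 0.30, adjusted p = 0.605).

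Of 28 genes commonly used as references, all tested, 5 were higher and 3 lower, with a median of 0.25, and the share called was 28.6%, against the 36.8% of all genes. The number higher was 3 without LoVo, and the number lower was 1 without LoVo, without LS1034 or without HCT116. ACTB, beta actin, was at 21653, 21571, 21647 and 21391 CPM and then 13905, 14401, 14459 and 13566 CPM. The groups were far apart and ACTB fell by 0.70 ± 0.06 (adjusted p = 0.000336). GAPDH, a glycolytic enzyme, read 3947, 4007, 3984 and 3977 CPM and then 3678, 4138, 3408 and 4479 CPM, overlapping (log2 -0.11 ± 0.08, adjusted p = 0.306).

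Of the 13 mitochondrially encoded genes none was called (edgeR), with a median of -0.27. At an unadjusted p under 0.05, 1 was higher and 4 were lower, and DESeq2 called 1 higher and 1 lower. Without LoVo, 2 were lower, and over all 16 mixtures 6 were lower and 2 higher. Markers of other cell types were few. The pan-leukocyte gene PTPRC had no count in any 0.1% library, and the sum of the 16 immune markers in the table was between 16.5 and 17.7 CPM at 0.1% and between 10.1 and 16.01 CPM at 50%; neither of the 2 tested was called, although 1 was lower at an unadjusted p under 0.05 and by DESeq2. Of 4 endothelial markers tested, 2 were lower and none higher by edgeR (50.0% called, against 36.8% of all genes). Another, ESAM, was higher at an unadjusted p under 0.05 and by DESeq2. FLT1 and TEK, receptors of endothelial cells, fell by 1.10 ± 0.12 (adjusted p = 0.000928) and 1.14 ± 0.14 (adjusted p = 0.00125). FLT1 had an unmixed CCD841CoN mean of 223 CPM and TEK of 217 CPM. ESAM, an endothelial junction gene, read 1.41, 1.21, 0.734 and 1.38 CPM at 0.1% and 9.25, 1.49, 69.5 and 8.03 CPM at 50%, highest in HT-29 and without overlap. Its change of 2.85 ± 0.95 was not called by edgeR (adjusted p = 0.0537), but 5 of 10 alternatives called it, DESeq2 with an adjusted p of 0.00113 and the fit with lines not paired with 0.0118. NPY, a neuropeptide, fell by 1.13 ± 0.10 (adjusted p = 0.000487), from 492, 479, 447 and 469 CPM to 262, 209.7, 203 and 244 CPM.

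Ranked by fitted log2 change, the 12 largest rises at 10 CPM or more were of genes with no count at 0.1%. That ranking favours such genes, as their fitted changes have no meaning as a size. MPZL2, an epithelial adhesion protein, read 22.3, 43.7, 118 and 16.6 CPM at 50% and was at least 1670-fold higher. GJB2, the gap junction protein connexin 26, read 36.9, 5.96, 72.3 and 51.7 CPM and was at least 1386-fold higher. The other 10 of the 12 largest were EPB41L4B, CHMP4C, HOXB9, GRB7, RAB11FIP4, GRHL2, SLC27A2, KCNQ1, CBLC and TMEM125, at least 716-fold higher. Such bounds lie above the 500-fold that the labels allow; the floor of 3 counts, summed over the 0.1% libraries, is 0.0301 CPM.

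Some genes at 50% were present in 1 line's mixture only. HAND1, a transcription factor, read 38.5, 0, 0 and 0 CPM at 50% and SPINK6 and CALB1 were also highest in LoVo. STYXL2 read 0, 114, 0 and 0 CPM, and RLBP1 and VAV3 were the next genes of LS1034. NMUR2, a neuromedin receptor, read 0, 0, 101 and 0 CPM, with HCAR1 and MYRFL also marking HT-29. GTSF1, a germline gene, read 0, 0, 0 and 155 CPM, and with MAGEB2 and PRAME, both cancer testis genes, marked HCT116. These genes were found by their 50% values, which are given as a description, and none passed the filter for the paired test.

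Lines could also pull a gene in opposite directions. At 20 CPM or more, 267 genes had a log2 ratio of at least 1 in 1 line and of -0.5 or less in another, and 255 of them were tested, of which 4 were called. In 163 of the 267 only 1 line had a ratio of at least 1, LoVo in 30, LS1034 in 52, HT-29 in 40 and HCT116 in 41. TM4SF4, a tetraspanin-like membrane protein, read 0.952, 0.387, 3.85 and 0.459 CPM at 0.1% and 0.385, 4.47, 898 and 0.208 CPM at 50%. GAL, the neuropeptide galanin, went from 0, 0.677, 0.183 and 1.22 CPM to 60.8, 0.186, 0.384 and 121 CPM. HT-29 thus carried the first and LoVo and HCT116 the second, and differences between lines were not tested, as each line has 1 library a percentage.

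Spread between libraries grew with the cancer share. The median coefficient of variation of a gene was 7.51% over the 4 mixtures at 0.1% (8751 genes) and 21.9% over those at 50% (9750 genes). edgeR's common coefficient of variation was 12.9%, 18.0%, 28.6% and 44.1% at 0.1%, 1%, 10% and 50%. By label, the libraries at 0.1% differ in the source of 0.1% of their RNA and those at 50% in the source of 50%.

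The observed ratio of each gene was set beside that predicted from the unmixed libraries and the labelled percentages, with 0.5 CPM added to each level. Across between 10915 and 11130 genes a line, Pearson's r was 0.956, 0.965, 0.952 and 0.946; genes are not independent replicates. The observed change lay within 0.5 of the predicted one on the log2 scale for 84.0%, 84.7%, 78.5% and 84.2% of genes, fewest in HT-29. It lay beyond 1 for between 2.75% and 3.77%. Among genes predicted to rise by at least 3, 57.6%, 46.7%, 54.9% and 46.4% lay below the prediction, so neither side was favoured in all lines.

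**Figure D5:**
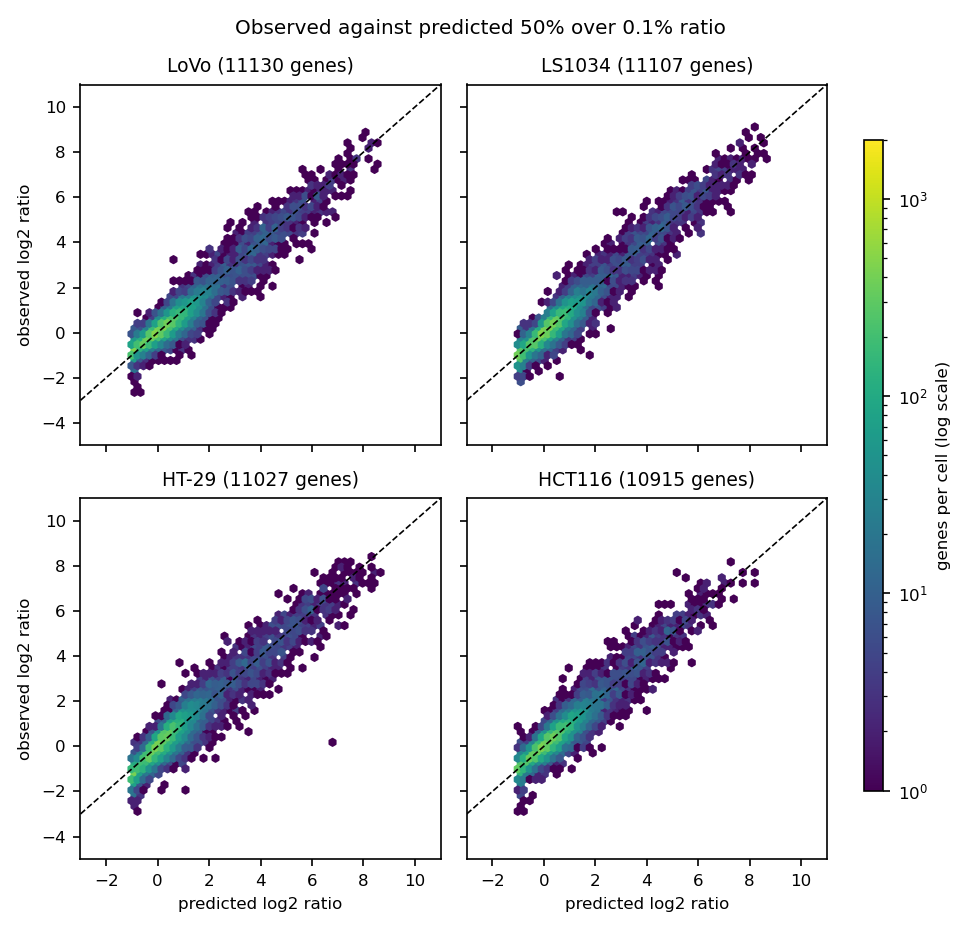
Observed against predicted log2 ratio of 50% over 0.1% cancer RNA, 1 panel per line, as a density of genes at 5 CPM or more predicted in either mixture; the diagonal marks equality. Genes gather along the diagonal in every panel, with r between 0.946 and 0.965.

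Some genes departed in the same direction in all 4 lines. Of 10237 genes at 10 CPM or more, 15 were above the prediction by over 0.5 in 4 of 4 lines and 96 below it. All 4 predictions use the same unmixed CCD841CoN mean, so the same direction in 4 lines is not 4 independent observations. PCDH1, a protocadherin of epithelia, exceeded the predicted log2 ratio by 1.42, 2.41, 1.59 and 1.73, the only gene above by more than 1 in each. It read 1.65, 0.58, 1.01 and 1.61 CPM at 0.1%, under its unmixed CCD841CoN mean of 6.19 CPM, and 46.5, 46.3, 52.3 and 19.5 CPM at 50%. VPS13A, a lipid transfer protein, fell short by 2.06, 1.26, 1.72 and 1.29, remaining at 9.59, 9.71, 10.96 and 8.03 CPM and then 9.68, 9.74, 9.60 and 8.59 CPM despite unmixed means of 27.4 to 54.4 CPM in the cancer lines. FASN, the fatty acid synthase, was at 6.26, 6.39, 13.98 and 21.6 CPM at 50%, against unmixed means of 55.4, 46.3, 69.3 and 92.3 CPM.

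EPCAM too was below the prediction in each line, with departures of -1.18, -1.02, -1.18 and -0.51. At 0.1% its levels of 3.01, 6.28, 5.46 and 1.38 CPM were above the 0.1% share of its unmixed means of 1368, 2586, 1525 and 784 CPM, in the direction of the gain estimates above 0.1%. COL1A1 departed by no more than 0.27 in any line.

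COLEC12, a scavenger receptor called lower, was at 20.1, 21.0, 19.3 and 20.9 CPM at 0.1% and 7.61, 6.83, 5.15 and 6.02 CPM at 50%. It kept 37.9%, 32.5%, 26.7% and 28.9% of its level, where CCD841CoN-only genes kept 55.3%, 47.6%, 41.1% and 49.0%. COLEC12 fell by 1.76 ± 0.21 (adjusted p = 0.00116), and it was the only gene called lower at 10 CPM or more that kept less than 0.75 of that share in all 4 lines. The 4 genes with log2 changes of -3 or less were ZYG11A, SHE, GUCA1A and EID3, all under 4 CPM at 0.1%; EID3, the highest, read 2.24, 2.56, 3.21 and 2.52 CPM and then 0.578, 0.062, 0.347 and 0.346 CPM. These 5 genes were picked after their values were seen.

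The calls in the mixtures were set beside those between the unmixed lines, where 8610 of 14452 genes tested (59.6%) differed between the mean of the 4 cancer lines and CCD841CoN by edgeR's quasi-likelihood test with Benjamini-Hochberg adjustment. Among 12482 genes tested in both, 2375 were higher in both, which is 92.0% of those higher in the mixtures and 63.7% of those higher in the unmixed cancer lines. Likewise 1953 were lower in both, 96.3% of those lower in the mixtures and 49.6% of those lower unmixed. No gene was called in opposite directions, and 281 genes (6.10% of those called in the mixtures) were called in the mixtures alone.

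How much of an unmixed difference could be recovered depended on its direction and size. Of genes higher in the unmixed cancer lines by less than 1 on the log2 scale, 42.2% were called in the mixtures. That share was 61.1% for differences from 1 to 2, 74.9% from 2 to 4, 91.0% from 4 to 6 and 99.2% beyond 6. For genes lower in the cancer lines the same steps gave 14.6%, 46.2%, 55.4%, 58.3% and 84.3%. Over those steps the median change in the mixtures went from 0.53 to 7.50 for genes higher in cancer, and from -0.28 to -1.14 for genes lower.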

How the data were processed

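Per the labels' protocols, total RNA libraries were made with the Roche KAPA stranded kit with RiboErase, which removes ribosomal RNA. Per the submitters' processing notes, the authors used STAR, featureCounts and hg19; versions, and how reads shared by gene copies were counted, are not given in the sources used here. The deposited values are raw counts per protein-coding gene, 17113 genes in 31 libraries.

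Libraries were grouped by their labels. The 8 mixtures were fitted with edgeR 4.0.16 (R 4.3.3; TMM scaling, filterByExpr by percentage with a minimum count of 10, glmQLFit and glmQLFTest), with the cancer line as a block and 3 residual degrees of freedom. A gene was called at a Benjamini-Hochberg adjusted p below 0.05 over all 12521 genes tested. Levels are CPM of each library total. The 15 unmixed libraries were fitted without a block. Same-line mixtures are paired by the cell line they share; their deviations from the group means correlated at 0.0506 to 0.0997 (4 pairs), against -0.0573 to 0.00674 between lines (12 pairs).

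Shares of cancer RNA were ratios of summed CPM over genes at 10 CPM or more on 1 side and at least 50 times the other. No CCD841CoN level was subtracted in the gain estimate. Predicted ratios used unmixed means weighted by the labelled percentages, for genes predicted at 5 CPM or more.

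The members and the 22 gene lists were chosen with earlier results of these data known. Named genes were, among non-overlapping calls, the 12 largest rises at 10 CPM or more at 50% and the 12 falls highest at 0.1%; per list the 4 highest members and up to 3 called against the majority; per line the 3 most specific genes at 20 CPM or more; and the 5 largest departures from the prediction each way at 10 CPM or more. Further list members were named as examples with their values seen.

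Alternatives were no block, DESeq2 1.42.0 and its size factors, library size only, no filter, all 16 mixtures, a fold limit and each line left out. Tested on simulated data with 12521 genes, the test recovered 11.9% of 1.5-fold, 55.2% of 2-fold and 90.9% of 4-fold changes. Only 105 genes were called in the simulation, against 4611 in the data, so these rates do not carry over to the data. Floors and intervals cover counting error only. Python 3.11.15, pandas 2.3.3, scipy 1.17.1 and matplotlib 3.10.9 were used for the remaining steps. Coordinates were not used here, and some genes are not reported here.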

Additional observations from a re-analysis of the deposited data

Results flagged for a closer look

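Among the named genes reported here, 272 groups of 4 libraries were looked at for a library whose gap to the nearest other exceeded 0.829 of the group's range. Of these groups, 220 passed a level of 5 CPM. For libraries drawn alike, chance would set apart about 1 in 20 groups, but these libraries came from 4 different lines. Here 28 were set apart, 12 of them for genes named because they mark 1 line. At 50% those were CALB1, HAND1 and SPINK6 in LoVo (260.1, 38.5 and 20.3 CPM), STYXL2, RLBP1 and VAV3 in LS1034 (114, 27.4 and 22.8 CPM), NMUR2, HCAR1 and MYRFL in HT-29 (101, 32.5 and 29.1 CPM), and GTSF1, MAGEB2 and PRAME in HCT116 (155, 147 and 48.1 CPM). Each was at or under 0.248 CPM in the other 3 mixtures.

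Also at 50%, LS1034 was far above the other lines for B2M (5749.9 against at most 2865 CPM) and TGFBI (2064 against at most 888 CPM), and below them for ISG15 (84.8 against at least 146 CPM). HT-29 was above the others for LYZ (1362 CPM), for the junction gene ESAM (69.5 against at most 9.25 CPM) and for VCP (805 against at most 721 CPM). LoVo stood above for REG4 (960.0 CPM) and the ribosomal protein RPS27L (470 against at most 342 CPM). VPS13A was lowest in HCT116 (8.59 against at least 9.60 CPM).

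At 0.1%, HT-29 was above the other lines for HLA-C (129 CPM) and LYZ (5.69 CPM) and below them for SOX9 (4.22 CPM). HCT116 was lowest for CCND1 (1941 against at least 2038.5 CPM) and the collagen chain COL1A2 (6836 against at least 6964 CPM), both small differences. LS1034 was highest for FASN (6.19 against at most 4.49 CPM) and OAS3 (24.8 against at most 21.5 CPM).

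Of the genes chosen by the naming rule, 3 had a log2 ratio of at least 1 in 1 line and of -0.5 or less in another at 20 CPM or more. ATP8A1, a phospholipid transporter, had a log2 ratio of 3.35 in LoVo and 2.71 in LS1034 and was lower at 50% in HT-29 and HCT116. MSH3 had 1.07 in LoVo and was lower at 50% in HCT116, and PHLDA1 had 1.11 in LS1034 with a fall of 0.5 or more elsewhere. Of the genes described outside that rule, TM4SF4 (2.49 in LS1034, 7.69 in HT-29), GAL (6.94 in LoVo, 6.14 in HCT116), VCAN (3.56 in HCT116) and IGF2 (1.97 in LS1034) met the same limits, each with a fall of 0.5 or more in another line. The differences between lines were not tested.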

How the results depend on the processing

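With no replicate block, so that lines were not paired, 5401 genes passed against 4611. DESeq2 gave 5553, DESeq2 size factors in edgeR 4618, scaling by library size alone 4658 (3001 higher, 1657 lower) and no filter 4716. Library size alone put 64.4% of calls on the higher side, against 56.0%. All 16 mixtures in 1 fit gave 7160 calls (3973 higher, 3187 lower), and a fold limit of log2 1 left 2321 (1547 higher, 774 lower). Leaving out 1 line gave 3298 to 3643 calls in all, 1845 to 2123 higher and 1446 to 1536 lower. In the unmixed comparison, a replicate block gave 9214 calls, DESeq2 8735 and library size alone 9031 against 8610, and leaving out a library 7210 to 8735. The observed change was within 0.5 of the predicted one for 80.6%, 80.6%, 75.3% and 79.9% of genes at 1 CPM or more and for 88.7%, 89.9%, 82.8% and 89.6% at 20 CPM or more; Pearson's r was 0.942, 0.953, 0.941 and 0.930, and 0.965, 0.974, 0.961 and 0.955. The gain estimate stayed within 47.6% to 49.9%, 55.4% to 56.3%, 56.0% to 58.4% and 50.2% to 52.2% when unmixed libraries were left out. With unmixed CCD841CoN as the reference for the loss, gain minus loss turned from 1.61 to -2.06 percentage points; under the other share alternatives it stayed positive, between 1.10 and 2.64. No called gene among those chosen by the naming rule reversed. In simulated data, changes of 1.5-fold were mostly not recovered, but only 105 genes were called there against 4611 in the mixtures. The adjusted p cutoff is therefore not alike, and those rates do not describe the mixtures. Genes not called may still differ.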

Other observations

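The largest departure of a single line from its prediction was FOSB, an immediate early transcription factor, in HT-29. It was predicted to change by 6.84 on the log2 scale and was observed at 0.09, with 0.367 CPM at 0.1% and 0.42 CPM at 50%. The 3 unmixed HT-29 libraries held 17.9, 424 and 2.04 CPM of FOSB, so that the prediction rested on 1 library. F2RL1, a protease-activated receptor, departed most in HCT116, where it exceeded the predicted change by 2.48. It read 0.229 CPM at 0.1%, 4.04 CPM at 1%, 38.6 CPM at 10% and 145 CPM at 50%, while the unmixed mean of CCD841CoN was 3.29 CPM.

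Of the 267 genes with a log2 ratio of at least 1 in 1 line and of -0.5 or less in another at 20 CPM or more, the 4 called were ACSS1, PTGS2, FOXQ1 and MLF1, all higher. Their changes were 4.53 ± 1.20 (SE; adjusted p = 0.0246), 5.81 ± 1.42 (adjusted p = 0.0182), 3.59 ± 1.06 (adjusted p = 0.0356) and 2.24 ± 0.72 (adjusted p = 0.0469) by edgeR's quasi-likelihood test.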
